A study of Mus musculus with 11 samples.

Results

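Luminal ductal epithelial genes other than keratins were examined in ZsGreen-positive, periostin-lineage segments of the naive mouse mammary gland. The 9 genes were Epcam, Cldn3, Cldn4, Cldn7, Foxa1, Elf5, Ehf, Slc12a2 and Fcgbp, taken by name from the 19962 gene targets of the table (19965 endogenous probes), with 1 probe each. They were chosen by name and in part selected on their higher levels in the Pdpn-adjacent regions 4 and 8, so their levels in those regions, and the contrast of Pdpn-adjacent with SMA-adjacent regions that contains them, are given as description with no test.

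The regions came from 3 naive periostin lineage tracing mice, in which ZsGreen marks cells that express periostin or descend from cells that did. The sources used here do not give the driver that switches the reporter on or the age of the mice. Regions were placed by antibody stains, and 6 were labelled Pdpn-adjacent (regions 2, 3, 4, 7, 8 and 11), near podoplanin-stained lymphatic vessels, and 5 SMA-adjacent (regions 1, 5, 6, 9 and 10), near actin-stained ducts and blood vessels. Both groups share the genotype, the naive state and the ZsGreen gate, and no label ties a region to a mouse, so some regions share a mouse and every p-value over regions can be too small. Ducts are named in the description of the SMA-adjacent group and not in that of the Pdpn-adjacent group.

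A mammary duct is a tube of luminal cells enclosed by contractile myoepithelial cells and set in fat and stroma. Luminal cells hold together through Epcam and the claudins, keep their identity through transcription factors such as Foxa1 and Elf5, and move ions and secreted proteins into the lumen. Periostin is known as a product of stromal cells, whereas the genes described here are known as markers of the epithelium beside them.

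Depth decides how much each region can show. Total counts over endogenous probes ran from 22757 to 2271664 in Pdpn-adjacent regions and from 760761 to 3086323 in SMA-adjacent regions. Regions 2, 3 and 11 held 22757, 81760 and 30316 counts, and 90.0%, 18.1% and 77.6% of their probes stood at 1, the lowest value in the table. A level here is a raw count divided by the geometric mean of the 210 negative-control probes of the same region, so a level of 1 is background. The floor of a region is the mean plus 2 SDs of its negative probes on the log2 scale. CPM is the count scaled to library size after TMM normalization, background included. Levels in region 8 ran high for many genes, since 47.1% of all probes lay above every SMA-adjacent region there, against 7.01% in region 4. On the CPM scale those shares were 29.3% and 14.1%. The smooth muscle gene Acta2, a check of the labels, stood at 0.952 to 10.0 in Pdpn-adjacent and 12.9 to 87.5 in SMA-adjacent regions. Pdpn itself stood at 0.375 to 1.79 in Pdpn-adjacent and 1.56 to 1.95 in SMA-adjacent regions, so its probe was not higher in the group named for it, and Postn stood at 0.889 to 4.09 in Pdpn-adjacent and 1.84 to 5.13 in SMA-adjacent regions.

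The signal of the 9 genes was concentrated in regions 4 and 8 and in 3 of the genes. Epcam, Slc12a2 and Fcgbp exceeded the floor in both regions, and the other 6 exceeded it in neither. In region 4 the 3 of 9 compare with 9.23% of all probes above the floor, and in region 8 with 10.2%. Outside regions 4 and 8, Epcam exceeded the floor in SMA-adjacent regions 1, 6 and 9, Elf5 in region 2 with a raw count of 2, and no other gene of the 9 did so in any region. In bulk segments such as these, fewer cells of a type and less RNA per cell cannot be told apart.

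Taken as a share of all counts, the 9 probes summed to 0.0678% of region 4 (1541 of 2271664 counts, exact binomial 95% interval 0.0645 to 0.0713%) and 0.0627% of region 8 (189 of 301401, 0.0541 to 0.0723%). The other Pdpn-adjacent regions gave 0.0439% (10 of 22757, 0.0211 to 0.0808%) in region 2, 0.0391% (32 of 81760, 0.0268 to 0.0552%) in region 3, 0.0341% (77 of 225875, 0.0269 to 0.0426%) in region 7 and 0.0297% (9 of 30316, 0.0136 to 0.0563%) in region 11. SMA-adjacent regions gave 0.0314 to 0.0422%. Regions 4 and 8 lay above all 5 SMA-adjacent regions, and the other 4 Pdpn-adjacent regions overlapped them. Such intervals cover counting error only, because reads without a known removal of duplicates are not independent molecules. By geometric mean level over the 9 genes, the order was region 8 (2.42), region 4 (2.05), region 1 (1.31), region 6 (1.25), region 10 (1.25), region 5 (1.24), region 3 (1.22), region 9 (1.19), region 7 (1.14), region 2 (1.03) and region 11 (0.889). The 5 SMA-adjacent values spanned only 1.19 to 1.31, and the step between region 4 and region 1 was the widest in the order.

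Epcam, the adhesion molecule on the lateral face of simple epithelial cells, had the highest level of the 9 in regions 4 and 8. Its level was 4.46 in region 4 and 5.11 in region 8, and 0.952, 1.501, 1.89 and 0.889 in Pdpn-adjacent regions 2, 3, 7 and 11. The SMA-adjacent regions 1, 5, 6, 9 and 10 gave 2.61, 1.95, 2.36, 2.10 and 1.95. Regions 4 and 8 were the highest of the 11, and the other 4 of that group were lower than any of the 5 near SMA. The raw counts behind the high values were 342 in region 4 (exact Poisson 95% interval 307 to 380) and 40 in region 8 (28.6 to 54.5). On the CPM scale Epcam reached 147 and 133 in regions 4 and 8, and averaged 67.9 ± 8.73 CPM in SMA-adjacent regions (SD, n = 5). On build GRCm38.p6 its probe covers chromosome 17, 87646145 to 87646184, within the gene (87635979 to 87651127).

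Fcgbp encodes a large mucin-like protein secreted by mucosal epithelia. Its level was 3.38 in region 4 and 3.32 in region 8, against 0.952, 1.13, 0.582 and 0.889 in regions 2, 3, 7 and 11. SMA-adjacent regions 1, 5, 6, 9 and 10 stood at 1.28, 1.45, 1.60, 1.16 and 1.17. Among the 9 genes it had the largest step in region 4, at 2.54 times the mean level of SMA-adjacent regions, and in region 8 it reached 2.49 times that mean. The counts were 259 and 26 in those regions. The probe lies at chromosome 7, 28075325 to 28075362.

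Slc12a2 encodes the sodium-potassium-chloride cotransporter NKCC1 of the basolateral membrane. Its level was 2.65 in region 4 and 4.60 in region 8, with 0.952, 1.13, 1.60 and 0.889 in regions 2, 3, 7 and 11. The SMA-adjacent regions 1, 5, 6, 9 and 10 gave 1.24, 1.28, 1.37, 1.40 and 1.72. It differed more between regions 4 and 8 than Epcam or Fcgbp did, with Poisson intervals of 2.30 to 3.04 in region 4 and 3.22 to 6.37 in region 8. On the CPM scale the values were 87.3 and 120 in regions 4 and 8, against 36.9 to 50.3 CPM in SMA-adjacent regions. The probe lies at chromosome 18, 57899276 to 57899311.

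The claudins, which form the strands of tight junctions, stayed below the floor everywhere. Cldn3 was at 1.56 in region 4 and 2.17 in region 8, against 0.582 to 1.501 in the other Pdpn-adjacent and 0.840 to 1.02 in SMA-adjacent regions. Cldn4 was at 1.76 and 1.41 in regions 4 and 8, against 0.750 to 1.02 in the other Pdpn-adjacent and 0.793 to 1.24 in SMA-adjacent regions. Cldn7 was at 1.17 in region 4, the lowest of the 3 there and below its highest SMA-adjacent value of 1.19, and at 1.79 in region 8. In region 4 their counts were 120, 135 and 90 for Cldn3, Cldn4 and Cldn7, and in region 8 17, 11 and 14, so the order of Cldn3 and Cldn4 in region 8 lies within counting error. Cldn4 and Cldn3 are neighbours on chromosome 5, 39279 bases apart with 0 annotated genes between them, and their probes lie at 134946708 to 134946742 and 134987007 to 134987042. The Cldn7 probe is on chromosome 11, 69966017 to 69966051.

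Of the transcription factors, Foxa1 and Ehf had levels in regions 4 and 8 above all SMA-adjacent regions and Elf5 did not. Foxa1, the forkhead factor that opens chromatin for the estrogen receptor in hormone-sensing luminal cells, was at 1.54 in region 4 and 2.30 in region 8. It was at 0.952, 0.750, 1.31 and 0.889 in regions 2, 3, 7 and 11, and at 0.929, 0.819, 0.949, 1.09 and 0.939 in SMA-adjacent regions 1, 5, 6, 9 and 10. Ehf, an ETS factor of glandular epithelia, was at 1.79 and 1.92 in regions 4 and 8, barely above the SMA-adjacent range of 1.18 to 1.69 and beside 1.88 in the shallow region 3.

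Elf5, the ETS factor of luminal progenitors and of alveolar differentiation, went against the selection. Its level was 1.79 in region 4 and 1.53 in region 8, with 1.90, 2.63, 2.04 and 0.889 in regions 2, 3, 7 and 11. SMA-adjacent regions 1, 5, 6, 9 and 10 stood at 1.99, 1.75, 1.77, 1.37 and 1.55. Region 4 ranked 5 and region 8 ranked 9 of the 11, within the SMA-adjacent range. Elf5 and Ehf lie 108822 bases apart on chromosome 2 with 2 annotated genes between them, neither of which is protein-coding. Their probes are at 103439258 to 103439293 and 103279596 to 103279631, and that of Foxa1 is on chromosome 12 at 57543326 to 57543360. The sources used here do not say which exon or UTR a probe targets.

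Across the 9 genes, 7 had both regions 4 and 8 above every SMA-adjacent region in level over background, where 4.51% of all probes did, and 6 did so in CPM, where 5.85% did. Those values chose the genes and nothing is read from them. The 2 scales gave different genes: Cldn4 and Ehf were in the first count only and Cldn7 in the second only. Over the 8 regions with total counts above 100000, the log2 CPM of Epcam followed the mean of the other 8 genes with a Pearson correlation of 0.96, and the values for Cldn3, Fcgbp, Slc12a2, Cldn7, Foxa1, Cldn4 and Ehf were 0.86, 0.84, 0.83, 0.82, 0.74, 0.73 and 0.64. Elf5 stood apart at -0.18. Without regions 4 and 8 the correlations over the remaining 6 regions ran from -0.64 for Foxa1 to 0.66 for Cldn7. The points share library, depth and background, and these correlations are descriptions.

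In the edgeR quasi-likelihood fit over all 11 regions, the log2 fold change of Pdpn-adjacent minus SMA-adjacent regions was above 0 for all 9 genes, where 51.2% of the 19935 probes tested were. It ran from 0.15 ± 0.18 SE for Elf5 through 0.32 ± 0.17 for Ehf, 0.35 ± 0.16 for Cldn7, 0.69 ± 0.22 for Epcam, 0.70 ± 0.15 for Cldn3, 0.75 ± 0.14 for Foxa1, 0.78 ± 0.16 for Cldn4 and 0.91 ± 0.18 for Slc12a2 to 0.98 ± 0.23 for Fcgbp. The median of the 9 was 0.70 and that of all probes 0.01. Over all probes edgeR called 0.0100% at an adjusted p of 0.05, and 6.03% had an unadjusted p under 0.05 (2.84% higher and 3.19% lower). Calls of the 9 are not given, because this contrast chose the genes. The SEs are those implied by the p-values of the fit and do not measure the spread of the regions, so no test is read from them. Without region 4 the median of the 9 was 0.32, with Cldn4 at 0.21, Fcgbp at 0.32, Epcam at 0.34 and Ehf at 0.13.

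The same measure was tested with regions 4 and 8, whose high levels in part chose the genes, left out. This compared 4 Pdpn-adjacent regions with 5 SMA-adjacent regions. The SMA-adjacent regions were also in the contrast that chose the genes, so the test is not fully apart from that choice. No gene of the 9 passed with edgeR (adjusted p of 0.98 to 1.00 over 19938 probes), and 0 of the 9 had an unadjusted p under 0.05, beside 5.35% of all probes (3.28% higher and 2.07% lower). Over all probes 0.0652% were called, all higher in Pdpn-adjacent regions. The log2 fold changes were 0.40 ± 0.30 SE for Elf5, 0.32 ± 0.41 for Foxa1, 0.11 ± 0.45 for Cldn4, 0.07 ± 0.74 for Ehf, 0.05 ± 0.31 for Slc12a2, -0.05 ± 0.36 for Cldn3, -0.07 ± 0.49 for Cldn7, -0.34 ± 0.35 for Epcam and -0.71 ± 0.42 for Fcgbp. Of the 9, 5 were above 0, beside 51.9% of all probes, and their median was 0.05, beside 0.02 over all probes. DESeq2 and limma-voom called 0 of the 9 as well, DESeq2 with no adjusted p for any of them and limma-voom with 1 unadjusted p under 0.05, which that tool gave to 4824 probes as higher and 305 as lower. For Cldn7 and Ehf the SEs leave room for the 0.35 and 0.32 seen with regions 4 and 8. For Epcam, Slc12a2 and Fcgbp the estimates lay well below the 0.69, 0.91 and 0.98 of that fit, beside SEs of 0.35, 0.31 and 0.42. With 4 Pdpn-adjacent and 5 SMA-adjacent regions the test does not show that the groups are alike, and with regions sharing mice its p-values can be too small.

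**Figure D1:**
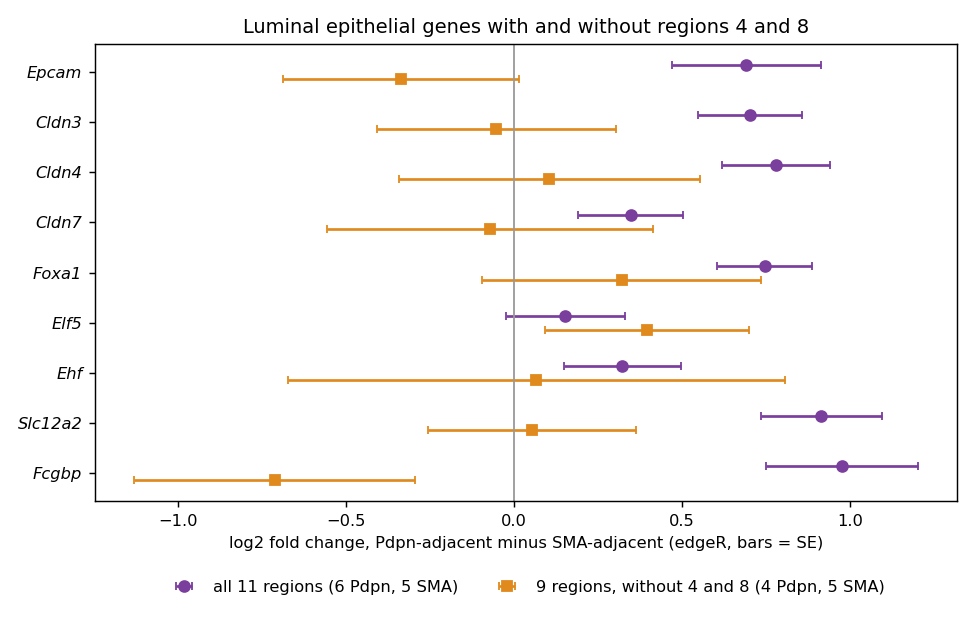
Log2 fold change of each of the 9 genes, Pdpn-adjacent minus SMA-adjacent, with SE bars, from edgeR fits over all 11 regions and over the 9 regions without 4 and 8. All 9 circles lie above 0, and the squares spread from -0.71 for Fcgbp to 0.40 for Elf5.

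An exact permutation test per gene over the 126 splits of the same 9 regions used log2 levels over background. Epcam averaged 0.32 ± 0.52 in Pdpn-adjacent (SD, n = 4) and 1.12 ± 0.18 in SMA-adjacent regions (SD, n = 5), a difference of -0.81 (exact permutation p = 0.0159 two-sided, the smallest the design allows, adjusted p = 0.238 over all probes). Fcgbp averaged -0.21 ± 0.40 in Pdpn-adjacent (SD, n = 4) and 0.40 ± 0.20 in SMA-adjacent regions (SD, n = 5), a difference of -0.61 with the same p-values. For both genes the 4 values near Pdpn were all lower than the 5 near SMA, as for 5.58% of all probes, and 12.9% of all probes had an exact p under 0.05 with lower values near Pdpn and 2.37% with higher ones. In CPM neither gene separated the groups, while 3.22% of all probes did. The permutation test on log2 CPM gave a difference of -0.59 for Epcam (exact permutation p = 0.0317, adjusted p = 0.298). For Fcgbp it gave -0.39 (exact permutation p = 0.190, adjusted p = 0.582). The counts in regions 2, 3 and 11 were 1, 4 and 1 for Epcam and 1, 3 and 1 for Fcgbp, so these levels sit at or near the lowest value in the table. On levels over background the exact p-values of the other 7 genes ran from 0.159 for Slc12a2 to 0.952 for Cldn3, and 0 of 19965 probes had an adjusted p under 0.05. The smallest adjusted p over all probes was 0.238. Regions that share a mouse can make these p-values too small.

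Other epithelial genes were compared over the 11 regions, again with p-values that shared mice can make too small. For 3 of the 4 luminal keratins, intermediate filament proteins of the same cells, both regions 4 and 8 were above every SMA-adjacent region; the exception was Krt7. Krt8 was at 3.47 and 4.22 in regions 4 and 8, 0.750 to 1.46 in the other Pdpn-adjacent and 1.42 to 1.86 in SMA-adjacent regions, and Krt18 at 3.598 and 3.96 in regions 4 and 8, 0.889 to 1.13 in the other Pdpn-adjacent and 1.14 to 1.86 in SMA-adjacent regions. Krt19 was at 4.32 and 4.60 in regions 4 and 8 and 1.75 to 2.61 in SMA-adjacent regions. It was not confined to regions 4 and 8, with 3.81 and 3.75 in the shallow regions 2 and 3. Of the 4 keratins 0 passed with edgeR, with a median log2 fold change of 0.83 and adjusted p-values of 0.0781 for Krt18 and 0.127 for Krt8. Without regions 4 and 8 their median was -0.28, with 1 of 4 above 0 and 0 called. Of 14 hormone-sensing luminal genes 0 passed (median 0.25, 13 above 0; without regions 4 and 8 median 0.22, 9 above 0 and 0 called), with the prolactin receptor Prlr at 0.88 ± 0.17 SE (adjusted p = 0.0620), the luminal factor Gata3 at 0.72 ± 0.19 (0.240), the progesterone receptor Pgr at 0.58 ± 0.17 (0.385) and the growth factor Areg at 0.61 ± 0.18 (0.430). Gata3 was at 2.80 and 4.22 in regions 4 and 8 and at 1.52 to 1.81 in SMA-adjacent regions. Of 15 secretory luminal and milk genes 1 was higher, Csn3 (0.98 ± 0.17 SE, edgeR adjusted p = 0.0413), which was lost without region 4 (0.58, adjusted p = 0.770). Csn3 also missed the threshold in 7 of the other 10 fits that left out a region, with adjusted p-values up to 0.123. Its adjusted p was 0.140 with negative-probe scaling, 0.152 with limma-voom and 0.0865 without regions 2, 3 and 11, and DESeq2 gave none. The list's median was 0.23, with 14 above 0, and without regions 4 and 8 it was 0.02, with 8 above 0 and 0 called.

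Regions 4 and 8 were not alike in what else they held. Ltf, the iron-binding milk protein lactoferrin, was at 5.62 in region 8 (44 counts) and 1.17 in region 4 (90 counts), against 0.889 to 1.31 in the other Pdpn-adjacent and 1.06 to 1.24 in SMA-adjacent regions. Aldh1a3, an enzyme of luminal progenitors, was at 3.19 in region 8 and 1.46 in region 4. Krt5, a keratin of basal cells, was at 1.53 in region 8 and 0.443 in region 4, with 0.203 to 0.394 in SMA-adjacent regions, and was below the floor in both regions 8 and 4 (12 and 34 counts). Of the other basal markers, Krt14 was close in regions 8 and 4, at 1.02 and 0.952, as was the basal factor Trp63, at 2.17 and 2.02. The rest of the 13 basal genes were further apart and higher in region 8, among them Oxtr at 3.96 and 1.67 and Krt15 at 2.43 and 1.56. The geometric mean level over all probes was itself 1.59 in region 8 and 1.27 in region 4. Small gaps on this scale are therefore not read as differences between the 2 regions. The 13 basal myoepithelial genes together were at 1.23 in region 4 and 2.51 in region 8, against 0.880 to 1.63 in the other Pdpn-adjacent and 1.43 to 2.44 in SMA-adjacent regions. Their summed level was 457 to 1369 CPM in Pdpn-adjacent and 1015 to 3842 CPM in SMA-adjacent regions. On that scale regions 4 and 8, at 592 and 966 CPM, were both below every SMA-adjacent region. Acta2, also a smooth muscle marker, gave 442 to 2608 CPM of that sum in SMA-adjacent regions. In regions 4 and 8 it gave 117 and 229 CPM. A sum without the smooth muscle genes was not taken, so this order is not read for the other basal genes. Of the 13 basal genes 0 passed with edgeR (median 0.06, 8 above 0), with Myh11, the smooth muscle myosin, at -2.51 ± 0.49 SE (adjusted p = 0.0667). No marker of these lists was at a count of 0, since 1 is the lowest value in the table, and the part of other cells in the levels of the 9 genes was not tested.

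**Figure D2:**
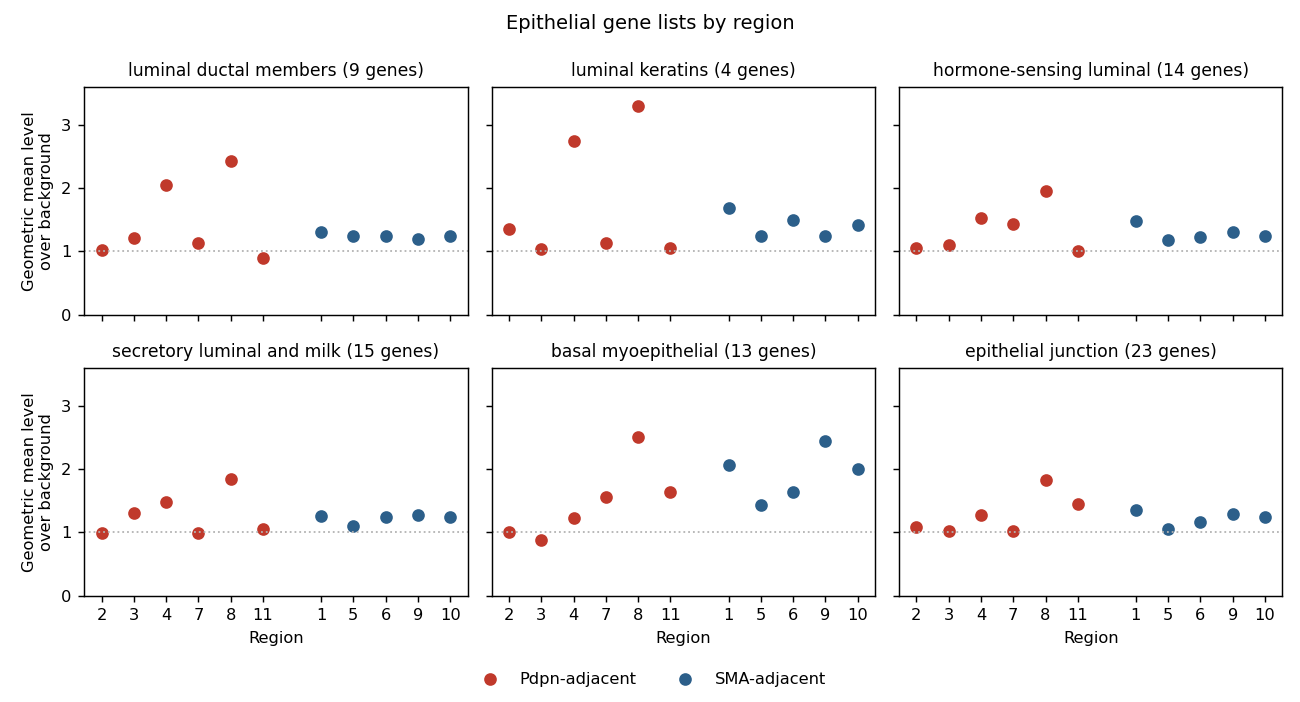
Geometric mean level over background of 6 epithelial gene lists in each region, Pdpn-adjacent left and SMA-adjacent right, with background at the dotted line. The 9 luminal genes and the luminal keratins are highest in regions 4 and 8, at 2.05 and 2.42 and at 2.75 and 3.29, while the basal list is at 1.23 in region 4 and 2.51 in region 8.

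The lists of genes that act beside the 9 held no call. Of 23 further genes of epithelial junctions and surfaces 0 passed with edgeR (median 0.19, 15 above 0), among them Dsp, a desmosomal plaque protein, at 0.46 ± 0.16 SE (adjusted p = 0.606). Cdh1, the cadherin of epithelial adherens junctions, was at 2.01 and 2.17 in regions 4 and 8, below the floor in both (154 and 17 counts). It was at 0.750 to 1.78 in the other Pdpn-adjacent and 1.22 to 1.70 in SMA-adjacent regions. Of the 23 genes, 6 had both regions 4 and 8 above every SMA-adjacent region, where 4.51% of all probes did. Of 17 other claudins 0 passed (median 0.05), with Cldn22 at 0.58 ± 0.16 SE (adjusted p = 0.295) and the endothelial claudin Cldn5 at -0.50 ± 0.22 (0.769). Of 17 further transcription factors of the ETS, grainyhead and related families 0 passed (median 0.01), with Grhl2 at 0.37 ± 0.18 SE (adjusted p = 0.827). Of 19 ion and water transport genes around Slc12a2 0 passed (median 0.02), with the chloride channel gene Cftr at -0.34 ± 0.16 SE (adjusted p = 0.801). Of 11 measured mucins and mucosal proteins 0 passed (median 0.22), with Ltf at 0.73 ± 0.25 SE (adjusted p = 0.645) and Muc1, the mucin of the apical membrane, at 0.43 ± 0.16 (0.702). Of 10 epidermal keratinocyte genes 0 passed (median 0.10), although Sbsn, a keratinocyte protein, reached 35.6 and Krt14, a basal keratin, 16.9 in region 11, where all 9 luminal genes stood at a count of 1. In region 11 a count of 1 equals 34.2 CPM. The markers of non-epithelial cells gave 0 calls with edgeR in the 11-region fit in all 7 lists, with median log2 fold changes of -2.13 for smooth muscle, -0.62 for adipocytes, 2.21 for fast skeletal muscle, -0.76 for fibroblasts, -0.12 for lymphatic endothelium, -0.42 for blood endothelium and -0.17 for macrophages. Without regions 4 and 8, 1 of the 8 fast skeletal muscle genes was called higher with edgeR (median 2.78) and 0 in the other 6 lists. The muscle list stood at 57.4 and 33.8 in regions 3 and 7, against 0.990 in region 4 and 3.99 in region 8, and 1.00 to 8.12 in SMA-adjacent regions, and its part in the 9-region comparison was not tested. Regions that share a mouse can make all these p-values too small.

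Among the other 19956 probes, those whose log2 CPM over the 8 deeper regions was most like the mean of the 9 genes were headed by Krt8 (Pearson correlation 0.98), Mlph, a melanosome transport protein (0.98), Gata3 (0.97), Krt19 (0.97), Csn3 (0.96) and Krt18 (0.96). Ccdc92 (0.96), Rhox12 (0.94), Pcp4, a calmodulin-binding peptide (0.94), and Npffr1 (0.94) completed the 10 most alike. Mlph was at 2.50 and 2.94 in regions 4 and 8, against 1.46 in region 7 and 1.43 to 1.77 in SMA-adjacent regions, and Pcp4 at 2.79 and 3.96, against 1.02 in region 7 and 0.903 to 1.65 in SMA-adjacent regions. Ccdc92, Rhox12 and Npffr1 were below the floor in both regions 4 and 8. Of these 10, 3 were shared with the list over all 11 regions and 0 with the list over the 6 deeper regions without 4 and 8. The likeness is a description over 8 libraries and rests on those 2.

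Promoter sequence from RefSeq on GRCm38.p6 was at hand for 7 of the 9 genes, and is shown because most of these genes share a short word near the start. The word searched was the E-box CAGGTG or its reverse complement CACCTG, known as the site of the ZEB and SNAI repressors of epithelial genes, and it was chosen after the sequences were seen. Windows of 250 bases before to 50 bases after the start held it in 7 of the 7 genes, where 22.6% of 27025 genes had it. The 250 bases before the start held it in 6 of the 7, where 19.4% of genes did. Of the other words, the ETS site CCGGAA or TTCCGG was in 1 of the 7 upstream windows (Cldn7; 13.6% of genes), the forkhead site TGTTTAC or GTAAACA in 1 (Foxa1; 3.54%) and the palindrome ACCGGT, the core of the grainyhead site, in 1 (Epcam; 2.13%). A further searched word, TATAAA or TTTATA, was in 0 of the 7 (14.3% of genes). Elf5 and Cldn7 have 2 windows each and a gene counts if either holds the word, and no searched words overlap each other. The 250 bases upstream of 4 genes, 5′ to 3′ on the strand of the gene with the E-box in capitals, are these.
Epcam (chr17:87635729-87635978, + strand): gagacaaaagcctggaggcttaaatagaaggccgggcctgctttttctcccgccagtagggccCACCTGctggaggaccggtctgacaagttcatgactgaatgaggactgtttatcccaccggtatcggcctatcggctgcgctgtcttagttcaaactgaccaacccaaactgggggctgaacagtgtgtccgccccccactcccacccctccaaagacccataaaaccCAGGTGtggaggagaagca
Fcgbp (chr7:28070986-28071235, + strand): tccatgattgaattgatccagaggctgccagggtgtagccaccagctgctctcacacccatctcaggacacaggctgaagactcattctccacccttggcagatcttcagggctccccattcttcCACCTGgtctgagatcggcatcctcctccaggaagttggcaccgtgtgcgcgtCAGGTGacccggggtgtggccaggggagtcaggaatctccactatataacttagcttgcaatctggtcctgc
Cldn4 (chr5:134946935-134947184, - strand): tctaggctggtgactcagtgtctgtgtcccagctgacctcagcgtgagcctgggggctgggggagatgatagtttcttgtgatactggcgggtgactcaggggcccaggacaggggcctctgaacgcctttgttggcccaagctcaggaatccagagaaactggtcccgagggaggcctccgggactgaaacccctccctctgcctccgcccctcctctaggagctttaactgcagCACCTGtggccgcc
Elf5 (chr2:103411848-103412097, + strand): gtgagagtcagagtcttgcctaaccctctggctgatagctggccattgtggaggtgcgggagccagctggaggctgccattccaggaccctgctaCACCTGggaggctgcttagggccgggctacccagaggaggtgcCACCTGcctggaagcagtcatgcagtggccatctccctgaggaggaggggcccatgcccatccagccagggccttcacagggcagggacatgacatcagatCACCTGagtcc
Epcam and Fcgbp have 2 E-boxes each, Cldn4 has 1, and Elf5, whose level did not follow the other genes, has 3. A match is a string of letters in these windows and does not show that a factor binds there, and its presence did not separate Elf5 from the rest.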

How the data were processed

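Barcoded probes of the GeoMx mouse Whole Transcriptome Atlas were counted in ZsGreen-positive segments of paraformaldehyde-fixed frozen mammary gland, per the labels' protocols. The labels count 12 collected areas, of which 11 were analysed here. The authors deposited raw counts per probe and region with no normalization, judged from whole numbers and unequal totals. Per the file headers, GRCm38.p6 is the build of the probe positions. The steps from reads to counts, the removal of duplicate reads and the origin of the lowest value of 1 are not given in the sources used here.

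Probes passing filterByExpr (19935 of 19965) were tested with the quasi-likelihood test of edgeR 4.0.16 in R 4.3.3, with TMM scaling and Benjamini-Hochberg adjustment over all probes at a threshold of 0.05. All 9 genes passed that filter. SEs are those implied by the p-values. The same fit was run without regions 4 and 8. Exact permutation p-values were adjusted over all probes and not, as first planned, over the 9 genes. The fits and the permutation test were tested on simulated data or against scipy 1.17.1. Alternatives changed the scaling, filter, tool (DESeq2 1.42.0, limma 3.58.1) or regions. The gene set, the lists and the alternatives were chosen with earlier results of these data known. Named genes were the 9, up to 4 of smallest p per epithelial list, called genes and the 10 most alike probes. Cdh1, Krt14, Trp63, Oxtr and Krt15 were named after their values were seen. Lists share genes: Acta2, Myh11 and Cnn1 are basal and smooth muscle markers, and Ltf is in the milk and mucin lists. Gene extents and promoters are from RefSeq on GRCm38.p6. Replicates are regions, and how many mice stand behind a group is not given.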

Additional observations from a re-analysis of the deposited data

How the results depend on the processing

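No paired analysis was possible because the groups share no replicate number. In the 11-region fit 2 probes were called. The count was 1 with negative-probe scaling, 17 with DESeq2, 0 with limma-voom, 1 without regions 2, 3 and 11 (chosen after seeing the data), and 1 to 53 when a region was left out, with 53 without region 5, 13 without region 7 and 1 without region 2, 3, 9, 10 or 11. All 9 genes kept a log2 fold change above 0 in each of these fits. Each fit kept region 4, region 8 or both, whose high levels in part chose the genes. The shared sign is therefore given as description and is no check of the contrast. In the edgeR fit without regions 4 and 8, 5 of the 9 were above 0, with a median of 0.05. In the 9-region fit 13 probes were called, against 8 with RLE size factors, 8 with negative-probe scaling, 39 with DESeq2, 1431 with limma-voom, 27 without regions 2 and 11 (chosen after seeing the data), and 1 to 33 when a region was left out. That count was 1 without region 1 or 9, 2 without region 3 or 6, 5 without region 10, 7 without region 7 and 33 without region 5. None of the 9-region fits called any of the 9 genes. The cause of these shifts was not tested.

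In the 9-region fit the median over all probes was 0.02, against -0.08 with negative-probe scaling and 0.25 with limma-voom. Signs turned for Ehf (-0.020) and Slc12a2 (-0.048) with negative-probe scaling and for Cldn3 (0.46) and Cldn7 (0.25) with limma-voom. With a region left out, Cldn3 ran from -0.41 to 0.56, Ehf from -0.10 to 0.24, Foxa1 from -0.018 to 0.46 and Slc12a2 from -0.26 to 0.13. In the permutation test on log2 CPM, the differences turned to 0.19 for Cldn3, 0.12 for Cldn4, 0.016 for Cldn7 and 0.031 for Ehf. With a region left out on levels over background, Cldn3 ran from -0.24 to 0.22, Cldn4 from -0.14 to 0.022, Foxa1 from -0.13 to 0.14 and Elf5 from -0.15 to 0.38. None of the 9 passed in any of these settings of the permutation test. Of the 10 most alike probes 3 were shared over all 11 regions and 0 without regions 4 and 8. The counts of 1 to 7 in regions 2, 3 and 11 give the 9-region comparison few counts for these genes, and the part of depth in its result was not tested.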
